A study of Mus musculus with 3 samples.

Results

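Among 3256 ZFP410 peaks of untreated mouse brown preadipocytes, 518 (15.9%) lay between genes and were still present after the cells had been put through brown adipocyte induction. They were chosen by their presence in the lists and by position. Each is an untreated peak on chromosomes 1 to 19 or X that shared at least 1 bp with a peak of the induced list and none with a peak of the IgG list. Its summit, the base of highest signal, fell outside every protein-coding gene and more than 1 kb from any end of one. Being kept is therefore no result about these sites, and the levels in both lists are given as a description.

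The cells were Lin-CD29+CD34+Sca1+ brown preadipocytes, sorted by flow cytometry from brown fat of wild-type male C57BL/6 mice, whose age is not given in the sources used here. One library came from untreated cells with a ZFP410 antibody, 1 from cells given brown adipocyte differentiation medium for 3 days with the same antibody (induced), and 1 from untreated cells with IgG, an antibody with no intended target. The method was CUT&Tag, in which an antibody guides a transposase that cuts and tags the DNA beside the bound protein. With 1 library in each of the 3 groups there is no spread between cultures, so no p-value is given and every difference is one between libraries. The lists hold positions and not expression, so the labelled cell type could not be set against marker levels. A summit held a median of 4, 7 and 4 fragments in the untreated, induced and IgG lists. The background, the fragments expected at a place with no site, was 2.24 times as high in the induced as in the untreated library, and 4.77 times as high in the untreated as in the IgG library, so IgG was the shallowest of the 3 libraries.

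ZFP410 is a zinc finger protein that reads DNA directly. It is known for very few strong targets, above all Chd4, whose product drives the NuRD chromatin remodeller and which carries groups of ZFP410 motifs at its promoter and at an element upstream. Intergenic sites of a factor can be enhancers, starts of noncoding RNAs or places of open chromatin where CUT&Tag cuts with little dependence on the antibody, and a peak list alone does not tell these apart.

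Sequence could be read for the 300 bases around transcription starts (250 before, 50 after; RefSeq, GRCm38.p6, the coordinates of mm10). The Chd4 windows are shown because the strongest of the intergenic sites lie next to them. Capitals mark the ZFP410 core CCCATAATA, searched on both strands. One window, chr6:125095731-125096030 on the plus strand, holds 3 copies, and an overlapping one, chr6:125095913-125096212, holds 2.
Chd4, first start: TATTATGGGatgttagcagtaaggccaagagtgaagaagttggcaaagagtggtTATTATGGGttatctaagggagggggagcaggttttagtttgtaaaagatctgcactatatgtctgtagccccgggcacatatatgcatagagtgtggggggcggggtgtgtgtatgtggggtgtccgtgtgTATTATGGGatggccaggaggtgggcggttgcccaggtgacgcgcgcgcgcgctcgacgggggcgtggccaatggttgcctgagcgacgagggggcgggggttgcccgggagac
Chd4, second start: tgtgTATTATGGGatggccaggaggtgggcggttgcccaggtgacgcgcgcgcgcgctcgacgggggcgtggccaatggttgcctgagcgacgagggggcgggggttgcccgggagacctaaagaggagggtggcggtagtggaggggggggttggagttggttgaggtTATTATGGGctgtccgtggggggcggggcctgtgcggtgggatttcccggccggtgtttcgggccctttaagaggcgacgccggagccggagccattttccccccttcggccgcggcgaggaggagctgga
These come to 4 distinct copies. The core was present in 32 of 32851 windows of all genes (0.0974%), and the only 2 windows with more than 1 copy were these. Both lie under an induced peak with 52 fragments at its summit, chr6:125094137-125097554, that also covers the intergenic site nearest to Chd4.

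Starts of lncRNAs, long RNAs that code for no protein, lay under 19 of the 518 sites, with 22 windows of 20 genes. None of the 22 held the ZFP410 core. TGACTCA, the letters that AP-1 (FOS and JUN dimers) is known to read, stood in 7 of the 22 windows (31.8%, 95% Wilson interval 16.4 to 52.7), against 5.20% of all 32851 windows and 6.20% of the 11588 lncRNA windows. Under intergenic peaks of the untreated list alone it was 1 of 10 windows, under those of the induced list alone 4 of 37 (10.8%), and under kept peaks at gene ends 20 of 356 (5.62%). In 5 of the 7 sites the letters lay inside the untreated peak, 5 to 90 bp from its summit. The next 3 windows are shown for that, with TGACTCA or its reverse complement in capitals.
Gm34026, chr8:106399795-106400094, plus strand: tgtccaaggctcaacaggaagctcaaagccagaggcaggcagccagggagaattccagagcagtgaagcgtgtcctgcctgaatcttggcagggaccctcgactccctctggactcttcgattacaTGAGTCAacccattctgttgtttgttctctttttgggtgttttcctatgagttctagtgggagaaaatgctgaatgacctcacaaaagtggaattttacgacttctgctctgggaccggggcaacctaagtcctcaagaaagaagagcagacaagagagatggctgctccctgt
Gm9875, chr2:13558653-13558952, plus strand: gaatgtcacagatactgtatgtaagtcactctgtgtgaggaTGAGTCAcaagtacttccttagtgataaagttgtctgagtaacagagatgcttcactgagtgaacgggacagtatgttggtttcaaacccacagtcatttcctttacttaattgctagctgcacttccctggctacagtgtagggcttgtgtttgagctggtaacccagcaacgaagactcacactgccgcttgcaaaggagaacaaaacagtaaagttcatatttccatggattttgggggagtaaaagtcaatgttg
Gm34643, chr14:103012625-103012924, plus strand: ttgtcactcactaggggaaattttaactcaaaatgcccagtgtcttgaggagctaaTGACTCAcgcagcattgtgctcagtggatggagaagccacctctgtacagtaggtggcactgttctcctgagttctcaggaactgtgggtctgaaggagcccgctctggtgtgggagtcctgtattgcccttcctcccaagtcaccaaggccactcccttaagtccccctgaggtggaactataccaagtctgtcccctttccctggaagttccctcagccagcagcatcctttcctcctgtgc
The Gm34026 site, between Smpd3 and Zfp90, held 16 untreated and 31 induced fragments. At Gm9875, between Trdmt1 and the intermediate filament gene Vim, the values were 12 and 26, and at Gm34643, between Kctd12 and Acod1, 9 and 11. These letters are a description of short windows and not evidence of a bound factor. The median GC content of the 22 windows was 53.2%, against 48.3% for lncRNA windows in general, and the part of base composition in the difference was not tested. Other letters were searched on both strands. CACGTG (E-box) stood in 4 of the 22 (18.2%), against 7.15% of all and 5.89% of lncRNA windows. GGGCGG (GC box) stood in 5 (22.7%), below the 35.7% of all and above the 16.3% of lncRNA windows. CCAAT stood in 3 (13.6%), against 37.4% and 36.0%.

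Most of the 518 sites were shallow. The untreated summit held from 3 to 64 fragments with a median of 6 and quartiles of 4 and 8, and the overlapping induced peak held 4 to 227 with a median of 12 (quartiles 8 and 18). Only 83 sites reached 10 untreated fragments and 16 reached 20, while 38 sat at 3, the lowest number called. At the median site the IgG library would be expected to hold 1.26 fragments at equal enrichment, under the 2 of the lowest IgG peak. At 31 sites it would be expected to hold 3 or more. The absence of an IgG peak therefore says little at the median site and at lower ones. Summits of the 2 lists lay a median of 58 bp apart, within 100 bp at 358 sites (69.1%) and over 500 bp apart at 13. The local background equalled that of the genome at 394 sites (76.1%) in the untreated list. The site of 64 fragments, 42877 bp from Tex44 and named after its value was seen, stood on a local background of 20.4 fragments, so its fold of 3.03 was among the lowest called.

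How often an intergenic peak was kept moved with its height. It was 10.6% (38 of 357) at 3 fragments, 31.0% (104 of 336) at 4, 58.7% (179 of 305) at 5 to 6, 78.1% (114 of 146) at 7 to 9 and 91.2% (83 of 91) at 10 or more. Over all 1235 intergenic peaks without IgG it was 41.9% (39.2 to 44.7), below the 60.0% of 725 gene-end peaks (56.4 to 63.5) and close to the 45.1% of 1117 gene-body peaks (42.2 to 48.1). The share for all 3077 untreated peaks without IgG was 47.4%. Median fragments over kept and lost peaks together were 4 in the intergenic, 5 in the gene-end and 4 in the gene-body class.

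**Figure D1:**
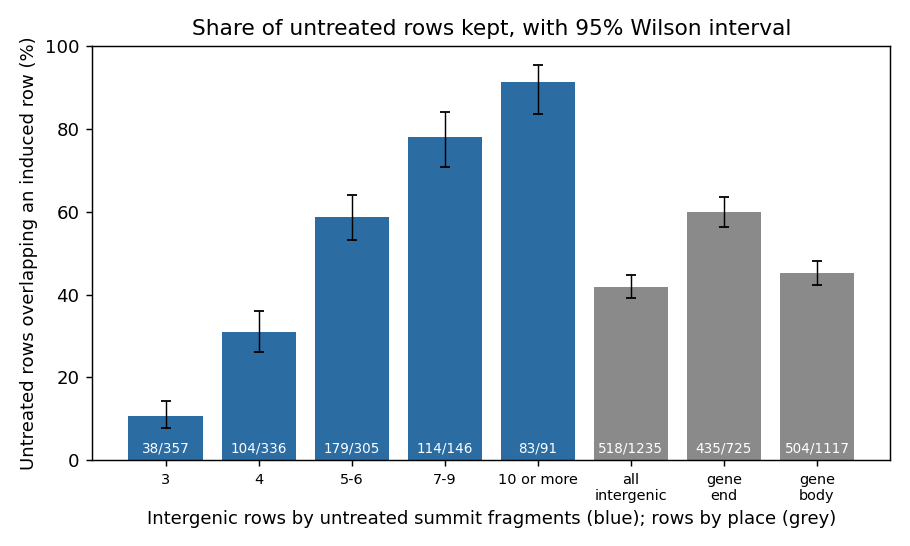
Share of untreated ZFP410 peaks (y axis, %) that overlap an induced peak, for intergenic peaks by untreated summit fragments (blue) and for 3 places (grey), with 95% Wilson intervals and the counts at the foot of each bar. The blue bars climb from 10.6% at 3 fragments to 91.2% at 10 or more.

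Enrichment was taken as summit fragments divided by that library's genome-wide background. It was compared between the libraries for the 454 sites whose local background was at most 2 times that of the genome in both lists. Their median ratio, induced over untreated, was 0.893 (95% interval of the median 0.812 to 0.893), with quartiles of 0.670 and 1.23. Scaled by a relative depth of 2.01, which was inferred from local backgrounds, the median was 0.995 (0.905 to 0.995). The gap to 1 was smaller on that scale. On the scale of the genome background, where the sites had 0.893, the median was 0.803 for the 362 gene-end peaks kept under the same limit. For the 438 gene-body peaks it was 0.854. An exact 95% binomial interval, which covers counting error only, lay above 1 at 15 of the 454 sites (3.30%) and below 1 at 7 (1.54%). Among all 1254 kept peaks of low background the shares were 2.79% and 1.52%, so the intergenic sites were near the background of the whole list in both directions. When each induced peak was counted once, 9 of 441 sites lay above 1, because several untreated peaks can share 1 induced peak. The 394 sites under 10 untreated fragments gave 8 above 1 and 0 below, and the 60 at 10 or more gave 7 and 7. A site needed an induced peak to be counted, which limits low ratios at shallow sites. Intervals of single sites are given on the genome-background scale only. A limit near 1 can fall on its other side on the scale of 2.01.

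**Figure D2:**
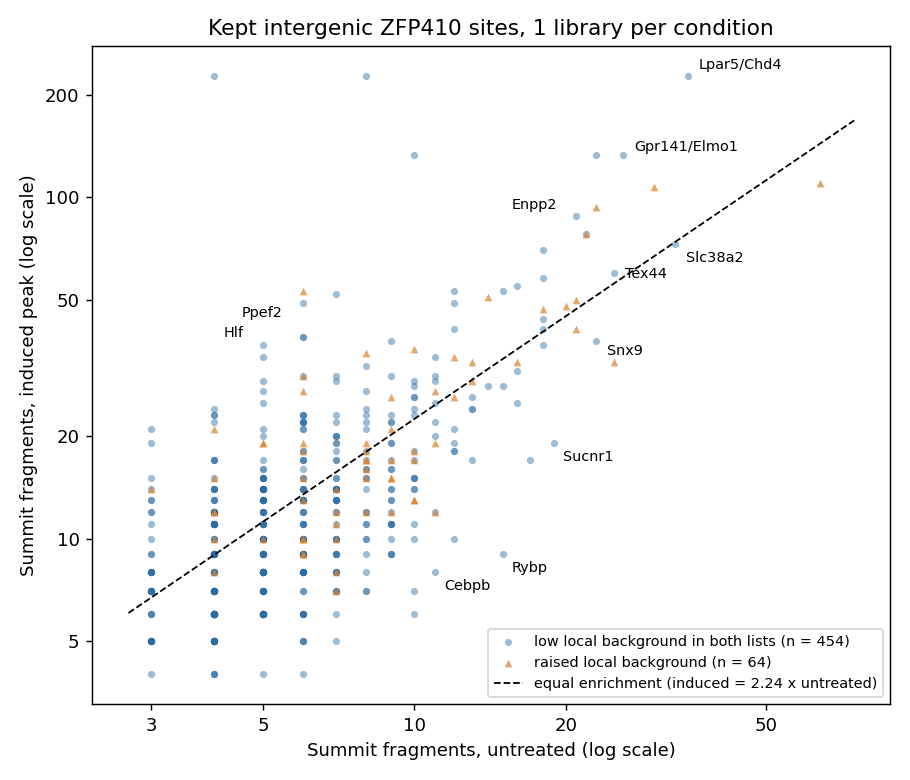
Summit fragments of the 518 sites in the untreated library (x axis, log scale) and in the overlapping induced peak (y axis, log scale). Circles are sites of low local background in both lists, triangles sites of raised background, and the dashed line marks equal enrichment. Lpar5/Chd4 (35 and 227) and Gpr141/Elmo1 (26 and 133) lie above the line and Rybp (15 and 9) below it. The induced summit of 133 stands 2211 bp from that Gpr141/Elmo1 site, at its neighbour.

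The highest site lay between Lpar5, a receptor for lysophosphatidic acid (LPA), and Chd4. At chr6:125088495-125089395 it held 35 untreated and 227 induced fragments, the second rank of the untreated list and the first of the induced list. Its ratio was 2.89 (2.02 to 4.26), and both summits stood 1 bp apart, 2879 bp from Lpar5 and 6972 bp from Chd4.

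Among the other sites, that of Slc38a2 came next by fold in the untreated list. This gene encodes a neutral amino acid transporter, and the site 10092 bp from it, chr15:96709448-96710025, held 33 and 73 fragments at a ratio of 0.987 (0.646 to 1.54). The site 29483 bp from Enpp2, the gene of autotaxin, which makes LPA, held 21 and 88 (1.87, 1.15 to 3.17). Values of 22 and 78 (1.58, 0.975 to 2.67) stood 24435 bp from Nfatc2, a transcription factor switched by calcineurin. Coro2b, a coronin of the actin skeleton, had 18 and 70 at 23124 bp (1.74, 1.02 to 3.10). So on the genome-background scale the intervals of Enpp2 and Coro2b excluded 1, and those of Slc38a2 and Nfatc2 did not. Coro2b was named by its induced fold alone, which favours a high ratio. Slc38a2, Enpp2 and Nfatc2 were named by the folds of both lists.

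A further 6 sites were among the highest by fold in either list. The site near Tex44, a testis gene, held 25 and 60 fragments (1.07), and that near Snx9, a sorting nexin of endocytosis, 23 and 38 (0.737). A site between E230025N22Rik and Cd14, the co-receptor for bacterial lipopolysaccharide, held 30 and 107 on a raised background. The intervals of Tex44 and Snx9 held 1. Between Asb1 and Twist2, a bHLH factor of mesenchyme, the values were 18 and 58, and beside Dapk1, a death-associated kinase, 15 and 53. Sucnr1, the succinate receptor, had 19 fragments in each library at a site 37094 bp away, which is a ratio of 0.446 (0.224 to 0.891). This site was named by its untreated fold alone and again as 1 of the 5 lowest ratios. Both choices favour a ratio below 1, so its interval is no independent result.

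Other low ratios among the 216 sites with 20 or more fragments in both libraries together were at Rybp, a subunit of Polycomb complexes (15 and 9; 0.268, 0.103 to 0.653), and at Zfp462, a zinc finger gene (12 and 10; 0.372, 0.144 to 0.939). Slc5a3, a myo-inositol transporter, had 17 and 17 (0.446, 0.214 to 0.930). At Crtam, an immune cell adhesion molecule, 10 and 10 gave the same ratio with an interval that held 1 (0.167 to 1.19). Of the 5 highest ratios, 3 came from untreated peaks that share a wide induced peak, 2 minor peaks beside the Lpar5 site and 1 of the Gpr141 group. A site of its own was Ppef2, a phosphatase gene, with 6 and 49 fragments (3.65, 1.56 to 10.4). The 6 and 53 fragments beside Mrpl45, of the mitochondrial ribosome, stood on an induced background of 20.3 fragments. All sites of this paragraph were picked by the ratio itself, so an interval that excludes 1 is no independent result.

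The 518 sites lay closer to genes than the other intergenic peaks. Their median distance to the nearest protein-coding gene was 24257 bp (21718 to 30090; quartiles 8740 and 76863). It was 40550 bp (33168 to 47808) for the 717 intergenic peaks of the untreated list alone and 56040 bp (51836 to 61405) for the 2645 of the induced list alone. Among the 510 sites that lie between 2 genes, 148 (29.0%) were within 10 kb, against 18.2% and 17.0% of the comparison sets and 14.0% of all intergenic bases by the same limits. At the other end, 19.8% were over 100 kb away, against 29.9%, 38.1% and 48.1%. Height moved with this in part. Kept and lost untreated peaks with 3 or 4 fragments had medians of 31622 and 44643 bp, with intervals that overlapped, and those with 5 to 9 fragments 22272 and 29646 bp. At 10 or more fragments the order was not kept: the medians were 24435 bp for 83 kept and 24035 bp for 8 lost peaks, of which 25.3% and 37.5% were within 10 kb. The differences between sets were not tested, since peaks are not replicates.

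**Figure D3:**
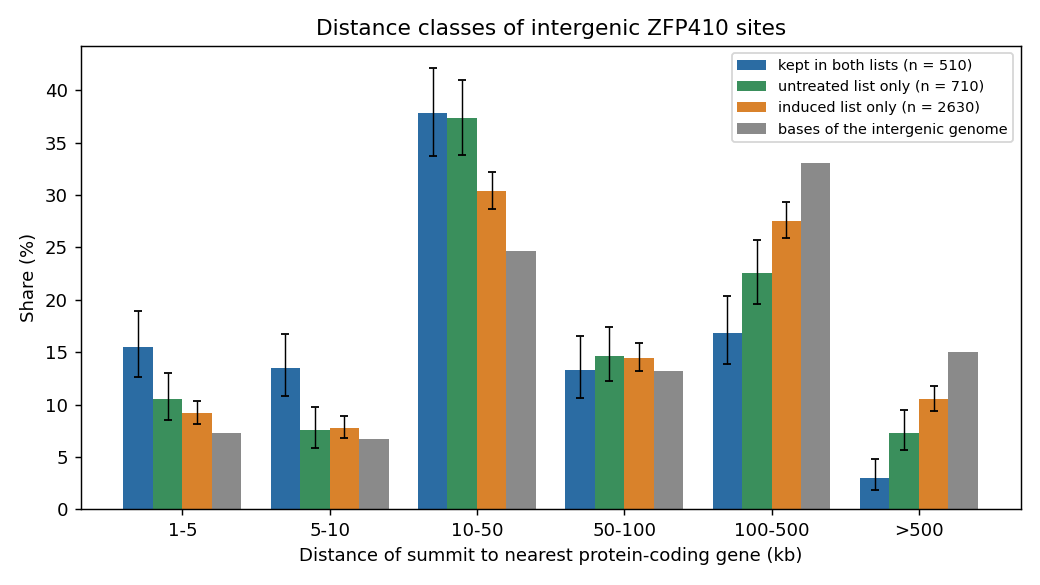
Share (y axis, %) of intergenic ZFP410 peaks in each class of distance from summit to nearest protein-coding gene (x axis, kb), for sites kept in both lists, those of 1 list alone and all intergenic bases, with 95% Wilson intervals. The kept sites stand highest in the classes below 10 kb and lowest above 100 kb.

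Where the strand of the nearest gene was known, 235 of 406 sites (57.9%, 53.0 to 62.6) lay upstream of it, against 52.0% and 53.3% in the comparison sets and 53.3% of intergenic bases. The farthest site was 1703583 bp from Gpc5, a glypican gene, with 3 and 5 fragments. It was followed by Pla2g4a (1450573 bp; 6 and 8), a phospholipase that frees arachidonic acid, Cdh10 (837625 bp; 4 and 7), Khdrbs3 (821079 bp; 7 and 14) and Tenm3 (820538 bp; 5 and 6). All 5 were low. Just outside the limit of 1 kb stood the sites of Junb (1079 bp; 5 and 10 fragments) and Mfap3l (1114 bp; 5 and 6), and just inside it, and so not counted, Nupr1 (953 bp; 10 and 33) and Irf2bp1 (941 bp; 3 and 5).

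When summits within 10 kb of each other were joined, the 518 sites made 460 loci. Of these 426 held 1 site and 34 were clusters, with 92 sites in all (17.8%). The share was 5.44% of the 717 untreated-only and 17.3% of the 2645 induced-only peaks. The part of peak number in these shares was not tested. In 7 of the 34 clusters all sites lay on 1 induced peak.

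The largest cluster held 7 sites along 17633 bp, chr7:64475723-64493356, between Mcee, an enzyme of propionate breakdown, and Apba2, an adaptor of the amyloid precursor protein. From left to right the untreated summits held 8, 4, 6, 6, 4, 5 and 5 fragments, each at the genome background. The overlapping induced peaks held 10, 6, 8, 8, 14, 6 and 8. These values come from 6 induced peaks, so a shared peak is listed more than once. No site of the group stood out, the ratios ran from 0.536 to 1.56, and all 7 intervals held 1. The last site was 8204 bp from Apba2.

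The next group, of 6 sites, filled the 6395 bp from Lpar5 to Chd4, chr6:125088221-125094616. Their untreated summits held 4, 35, 8, 4, 4 and 7 fragments, so the height sat in 1 place. The first 3 shared the induced peak of 227 fragments, and the others overlapped induced peaks of 5, 9 and 52. The last of them, 1364 bp from Chd4, had a ratio of 3.32 (1.50 to 8.65), but its induced partner is the wide peak that covers the Chd4 starts printed above.

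A group of 5 sites lay between Nanos3, a germ cell gene, and Zswim4, chr8:84197719-84203843. They held 4, 10, 7, 3 and 11 untreated and 12, 28, 13, 13 and 27 induced fragments. The induced values come from 4 peaks, so a shared peak is listed more than once. The last site was 4675 bp from the hairpin of Mir23a (chr8:84208518-84208592), which heads a run of microRNA genes with Mir27a (chr8:84208672-84208758) and Mir24-2 (chr8:84208815-84208921). Another 5 lay at the start of chromosome 9, before Alkbh8, a gene of tRNA modification 269456 bp away. They held 6, 8, 5, 6 and 7 untreated and 5, 7, 11, 11 and 10 induced fragments. Here, too, the induced values come from 4 peaks. An IgG summit was 17163 bp from this group, the nearest among the 5 largest clusters.

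The fifth group, of 3 sites between Gpr141, an orphan receptor, and Elmo1, which activates RAC in cell movement and engulfment, had 10, 23 and 26 untreated fragments at the genome background. They lay 92153 bp or more from either gene, at chr13:19916489-19921311, under 1 induced peak of 133 fragments. The induced summit stood at the middle site, whose ratio was 2.58 (1.65 to 4.21).

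**Figure D4:**
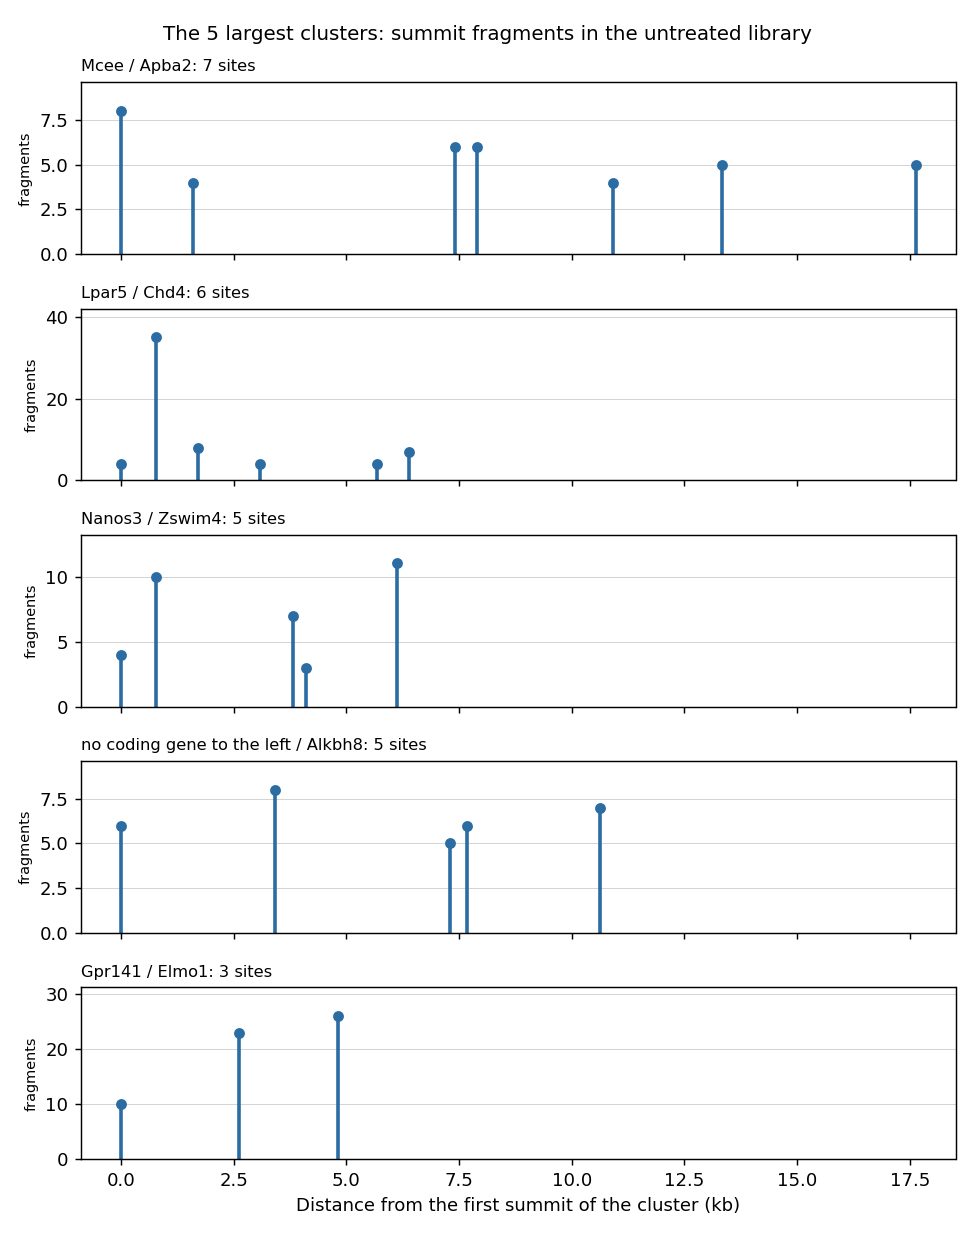
Untreated summit fragments (y axis) of each site in the 5 clusters, against the distance in kb from the first summit of the cluster (x axis). The 7 sites before Apba2 are even and low (4 to 8), while 1 site of the Lpar5/Chd4 group (35) stands above its neighbours.

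A further 8 clusters had 3 sites. A pair of them lay by Neat1, the lncRNA that builds paraspeckles. The first held 23, 10 and 10 untreated and 94, 36 and 13 induced fragments, between the lncRNA genes Malat1 and Neat1, and the second, with 10, 22 and 9 and then 13, 78 and 26, reached from inside Neat1 to 1301 bp beyond it. Their untreated backgrounds of 0.544 to 3.23 were all above that of the genome, 0.110. Between Slc38a9, a lysosomal amino acid sensor, and Plpp1, which removes phosphate from LPA, the values were 10, 13 and 10 and then 26, 26 and 14. The 26 listed at the first and second sites is the same induced peak. Between Tarbp1 and the corepressor gene Irf2bp2 1 site held 21 and 50 and the other two 4 to 5 and 6 to 14. The clusters of Tnc/Pappa (matrix glycoprotein and protease), Mycbp2/Scel, the defensins Defb7/Defb33, and Mreg/Pecr held 4 to 9 untreated fragments a site. That of Defb7/Defb33 was 82695 bp from an IgG summit. Defb7 and Defb33 lay 927114 and 462552 bp from its ends. Predicted genes lay nearer, Gm15319 at 61687 bp and Gm40469 at 124456 bp from its first site.

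The 518 sites had 820 protein-coding genes next to them on either side, 3.79% of 21631, and 437 (2.02%) were the nearest gene of a site. Gene lists were set against these shares. They were written with earlier results of these data known, which had named Lpar5 and Enpp2 among others, so a high count is no independent evidence. The length of the space around each gene was not taken into account.

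Genes of LPA signalling were counted most often, 5 of 10, and each was the nearest gene of its site. Beside Lpar5 and Enpp2, they were Plpp1 (13 and 26 fragments, 0.893), the receptor gene Lpar1 (5 and 8 at 21374 bp) and the phosphatase gene Plpp3 (4 and 7 at 25573 bp). At Plpp1 the untreated and induced summits stood 697 bp apart. Lpar5 and Enpp2 were known when the list was written, and the 6 sites beside Lpar5 are the same 6 that lie beside Chd4. The sites of Lpar1 and Plpp3 were as low as most of the list.

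Immediate early genes and AP-1 subunits, which switch on within minutes of a stimulus, followed with 10 of 24, 8 of them as the nearest gene and 7 within 100 kb. The highest were Ier3 (25 and 33 fragments at 22593 bp, ratio 0.589, on a background of 0.606), Fos (12 and 18 at 20427 bp), Klf6 (9 and 17, 1034515 bp away) and Myc (8 and 32, 819814 bp away; a second site lay at 338223 bp). Named after their values were seen, the others were Atf3, Fosb (6 and 18 at 9954 bp), Ier5, Nr4a1 (5 and 7 at 7318 bp), Dusp1 (5 and 27 at 1419 bp) and Junb. At 3 of them a site also lay within 2 kb of the gene: Junb, Dusp1 and, with another of its sites, Ier3 (1829 bp). All 10 intervals of the ratio held 1.

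Amino acid transporters had 4 of 16 (25.0%). These were Slc38a2 and Slc38a4 on either side of the site of 33 and 73 fragments, Slc38a9, and Slc6a6, the taurine transporter, with 6 and 10 at 84952 bp. The heat shock genes Hspa1b and Hspa1a, which encode inducible HSP70 and lie side by side, were 2 of 24. One site 2018 bp from Hspa1b held 16 and 55 fragments (1.53, 0.866 to 2.87), and another 3549 bp from Hspa1a held 9 and 16.

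Lists of adipocyte biology stood nearer to the share of all genes (3.79%) than the LPA, immediate early and amino acid transporter lists, but above it. Shares were 8.82% for adipogenic transcription factors, 6.67% for the brown thermogenic programme and 10.3% for preadipocyte and matrix genes. Lipid storage and adipokines had the highest share of these, with an interval that began at 4.17%, above that of all genes. The other intervals held 3.79%. All were below the 14.3% of housekeeping genes. Adipogenic transcription factors had 3 of 34: Cebpb, an early inducer of adipogenesis (11 and 8 at 87132 bp), Gata3, which holds preadipocytes back (10 and 11 at 715420 bp), and Klf3 (4 and 9 at 44489 bp). The ratio at Cebpb, 0.325 (0.113 to 0.886), had an interval below 1. Its site covers the starts of the lncRNAs Gm14321 and Gm32287. The brown thermogenic programme had 2 of 30, neither as the nearest gene. These were Lhx8, an early marker of brown fat (6 and 39 at 142650 bp; 2.90, 1.22 to 8.38), and Ppara (5 and 8 at 100441 bp). The induced peak of 39 fragments by Lhx8 is shared by 2 untreated peaks of 6 each.

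Lipid storage and adipokines had 3 of 25, with Enpp2, the desaturase gene Scd2 (11 and 34 at 8133 bp; 1.38) and Lpin1, a phosphatidate phosphatase (7 and 14 at 384348 bp). Preadipocyte and matrix genes had 3 of 29: Cd34, a marker by which the cells were sorted (6 and 10 at 60133 bp), Thy1 (7 and 13 at 98217 bp) and Col6a3 (6 and 13 at 90503 bp). Prostaglandin and cAMP signalling had 3 of 34, the receptor gene Ptger4 (9 and 11), Pde3a (6 and 10) and Ptgs2, the inducible cyclooxygenase (4 and 7 at 72623 bp). The list of adipogenic signalling, mainly BMP, TGF-beta, WNT and FGF, had 3 of 38. These were Fgfr1 (7 and 18), Sfrp2 (5 and 6) and the Notch ligand gene Jag1 (3 and 8). None of these intervals excluded 1 other than that of Enpp2.

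The circadian list had 2 of 19: Hlf, an output factor of the clock (5 and 37 at 6179 bp; 3.30, 1.30 to 10.8), and Bhlhe40 (5 and 12). NuRD had Chd4 as 1 of 15. Housekeeping genes, kept as a reference, had 4 of 28 (14.3%, 5.70 to 31.5), among them Pkm (9 and 30), Eef1a1 (7 and 7) and Ldha (7 and 29). Their share, too, was above that of all genes. Genes of m6A RNA methylation (0 of 22) and markers of other cell types (0 of 24) had none, which allows shares of up to 13.6% and 12.5% by a floor of 3 counts (14.9% and 13.8% by the Wilson upper limits that the plot of gene lists draws).

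**Figure D5:**
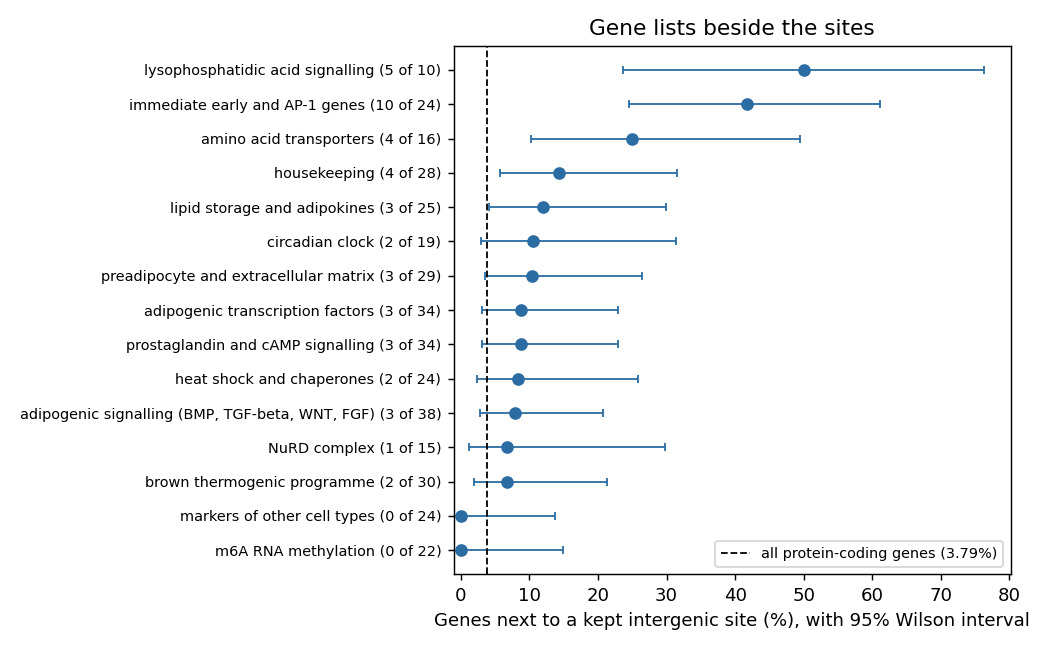
Share of each gene list with a kept intergenic site on either side (x axis, %), with 95% Wilson intervals and the counts in the labels. The dashed line is the share of all protein-coding genes (3.79%); LPA signalling and immediate early genes stand farthest to its right and 2 lists are at 0.

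Intergenic here means outside protein-coding genes, and 152 of the 518 sites (29.3%, 25.6 to 33.4) lay inside a noncoding gene or within 1 kb of its end, against 20.9% of the untreated-only and 18.8% of the induced-only peaks. By type, 130 were at lncRNA genes, 9 at small nuclear RNA genes, 4 at tRNA genes and 1 at a microRNA gene. That one was Mir22 (hairpin chr11:75463716-75463810), with 7 and 11 fragments 759 bp from the hairpin (ratio 0.701, 0.248 to 2.13). In all, 13 sites lay within 10 kb of 10 microRNA hairpins. They include the 6 sites of the Lpar5/Chd4 group, all near the hairpin of Mir7045, and sites of the Zswim4 cluster. The share of other peaks near a hairpin was not counted, so the number is a description only. The sequences that follow are the 3p arms of Mir22 and of Mir23a, Mir27a and Mir24-2 beside the Zswim4 cluster, shown because these are the neighbours of the sites, with the seed (bases 2 to 8) in capitals.
miR-22-3p: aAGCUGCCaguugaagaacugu
miR-23a-3p: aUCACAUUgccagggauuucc
miR-27a-3p: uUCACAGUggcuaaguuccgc
miR-24-3p: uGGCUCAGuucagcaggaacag
The 4 seeds of these arms differ from each other. The 5p arms and Mir3074-2, which overlaps Mir24-2 on the other strand, are not shown.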

How the data were processed

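CUT&Tag libraries of ZFP410 in untreated and induced cells and of IgG in untreated cells were analysed, 1 library a group, grouped by the labels. Alignment and peak calling used Bowtie2 2.2.6, Picard and MACS2 2.1.1 with the build mm10, per the submitters' processing notes. How duplicates were handled, and what control MACS2 received, is not given in the sources used here. A q threshold of 0.1 is part of each peak's name in the deposited lists. For each peak the authors' columns hold a score (not used), a fold over local background at the summit (a ratio), 2 values of −log10 (for the p-value, then for the q-value) and the place of the summit. These rank and filter peaks within a list.

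In MACS2 the fold is (fragments + 1) / (background + 1), and the Poisson tail of those 2 numbers gives the p-value. From both, whole summit fragments and the local background were recovered for all 3256, 7475 and 480 peaks (gap in −log10 p under 0.001, or a share of it under 1e-05 for large values). The step was tested on simulated data. At 276 of 386 kept peaks of raised background the local backgrounds stood at the ratio of the genome backgrounds (within 0.002), as from a control that the lists share, so both numbers of a pair are not fully independent. The commonest other ratio, 2.01 at 32 of the 386, was taken as the relative depth of the libraries. Read totals were not used for it. Where several induced peaks overlapped a site, that of most fragments was used. Ratios divide fragments by the genome background of the same library. Intervals are Wilson for shares, exact binomial for ratios and order-statistic for medians, at 95%, and cover counting error only.

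Gene positions came from a RefSeq table of GRCm38.p6 with 21887 protein-coding genes (21631 on the chromosomes used); strands came from RefSeq start windows, known for 17274. Sites were named by fixed ranks (10 highest folds in each list, 5 largest clusters, 5 farthest, 5 highest and 5 lowest ratios, 2 on each side of the limit of 1 kb, up to 4 genes of each list); the members and lists were chosen with earlier results of these data known. Peak sequences outside start windows were not analysed here, and some neighbouring genes are not reported here. Python 3.11.15, numpy 2.4.6, pandas 2.3.3, scipy 1.17.1 and matplotlib 3.10.9 were used.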

Additional observations from a re-analysis of the deposited data

How the results depend on the processing

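No paired analysis was possible because each group held 1 library. Of 36 alternatives to the main settings, 21 stayed within 1.5 times of a count or within the interval of a share or median, and 15 moved. A change of direction could be scored only for the median ratio, where there were 0. Counts, shares and distances have no direction to change. The number of sites fell from 518 to 251 at a −log10 q of at least 5 in the untreated list, to 240 with that limit in both lists and to 309 when 50% of both peaks had to overlap. The share of intergenic peaks kept moved from 41.9% to 80.2% at that q, to 70.8% at a fold of at least 5, to 25.0% at 50% overlap and to 29.2% with summits within 100 bp. The median distance was 33527 bp with a gene-end window of 5 kb and 10726.5 bp when every gene of the table bounded the intergenic space, both by construction. Sites in clusters numbered 58 at a gap of 2 kb and 40 at the stricter q, in place of 92. With ratios scaled by the inferred relative depth (2.01) and not by genome background (2.24), their median was 0.995 (0.905 to 0.995), also below 1 but by less. Alternatives added after the data were seen gave 414 neighbouring genes (1.91%) at the stricter q and 558 (2.58%) within 100 kb; the LPA genes were 3 and 5 under them, and the immediate early genes 6 and 7.

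Depth limits most of what can be said of single sites: the median site held 6 untreated fragments, and 38 held 3.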

Other observations

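The 518 sites do not include kept intergenic peaks with an IgG overlap. There were 31 of them, 24 on chromosome 9, and their values were far from those of the sites reported. The untreated summits held a median of 122 fragments (4 to 819) on a median local background of 23.2 fragments, and none stood at the genome background, against a median background of 0.110 among the 518. Of the 518 sites themselves, 8 lay within 10 kb of an IgG summit and 31 within 100 kb.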
